A study of Mus musculus with 6 samples.

Results

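Nanog, Pou5f1, Sox2 and Sall4 are 4 transcription factor genes at the centre of the network that keeps mouse embryonic stem cells pluripotent, and they were followed here while Nanog was lowered. They were taken by symbol from a table of read counts for 23999 genes. Each of the 4 has 1 row, and all 4 passed the filter on low counts, as did 14458 genes in all. The samples were murine embryonic stem cells, from which polyadenylated RNA was sequenced. The tested group had 6 days of 4-hydroxytamoxifen, written 4OHT (n = 3), a ligand that is widely used to switch on Cre recombinases, and its control had 6 days of the ethanol vehicle (n = 3). Cells of both groups carried a floxed element named -5, and both also carried mNanogV5, an exogenous mouse Nanog. By its title the series concerns an enhancer of Nanog. The labels name neither the Cre nor the number of clones, and they do not say whether replicates were separate cultures, so p-values measure the spread between these samples, which may be technical. Reads of the tagged copy can fall under the symbol Nanog, and the table does not separate it from the endogenous gene.

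OCT4, the POU-domain protein of Pou5f1, and SOX2, an HMG-box protein, bind DNA as a pair at composite elements in which a SOX motif lies beside an octamer. Nanog has such an element close to its start, and so do regulatory regions of Pou5f1 and Sox2 themselves. NANOG is a homeodomain protein that sits on many of the same enhancers, and SALL4 is a zinc finger protein that binds OCT4 and NANOG and recruits the NuRD deacetylase complex. Mouse stem cells tolerate low NANOG, while loss of OCT4 ends pluripotency.

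A SOX and octamer pair of this kind can be seen in the sequence at the start of Nanog. Windows of 300 bases around gene starts (250 before and 50 after) came from RefSeq on GRCm38.p6. This build differs from mm9, which the submitters name for the counts, so these positions were not joined to the table. The window of Nanog, chr6:122707239-122707538 on the plus strand, and that of Sox2, chr3:34649745-34650044 on the plus strand, are shown because both hold an octamer core. Capitals mark the SOX and octamer pair in Nanog and the octamer core in Sox2.

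Nanog: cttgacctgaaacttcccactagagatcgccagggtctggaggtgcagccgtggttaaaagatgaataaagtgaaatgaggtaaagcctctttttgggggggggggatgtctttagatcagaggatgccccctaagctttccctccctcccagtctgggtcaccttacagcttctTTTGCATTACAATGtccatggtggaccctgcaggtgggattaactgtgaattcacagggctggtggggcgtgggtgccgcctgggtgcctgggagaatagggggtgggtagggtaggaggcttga

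Sox2: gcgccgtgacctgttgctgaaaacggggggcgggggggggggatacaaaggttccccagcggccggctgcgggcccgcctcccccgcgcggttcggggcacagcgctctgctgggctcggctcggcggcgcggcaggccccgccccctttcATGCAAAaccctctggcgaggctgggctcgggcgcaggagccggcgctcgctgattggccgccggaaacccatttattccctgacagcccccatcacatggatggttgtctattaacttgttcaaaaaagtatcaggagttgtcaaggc

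The motifs were searched on both strands as exact letters. The octamer core ATGCAAA occurred in 4.63% of all 32851 windows and the SOX core CATTGT in 12.6%. The pair of both on the same strand with 1 base between them occurred in 2 windows (0.00609%), and both are windows of Nanog, which overlap and share the same match. In the window printed, 61 bases lie between the pair and the start. In the Sox2 window the octamer core stands alone, 92 bases before the start. Neither of the 2 Pou5f1 windows held an octamer core, and 1 held a SOX core. The NANOG core TAATGG, found in 7.73% of all windows, occurred in none of those of Nanog, Pou5f1 and Sox2. No window of Sall4 was available, so Sall4 was not searched. A match of letters is a description of the window and not evidence of binding.

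The libraries held between 515388 and 55194644 counts. The shallowest was 4OHT replicate 2, where 3 reads equal 5.73 CPM (read counts scaled to a common library total), against at most 0.149 CPM in each of the other 5. For the 4 factors this library still held 90 reads of Nanog, 619 of Pou5f1, 443 of Sox2 and 242 of Sall4, so its values carry wider counting intervals, and without it all 4 kept their call and direction. Levels are CPM scaled by TMM factors. Stem cell markers were high in both groups: the summed level of 10 such genes, Pou5f1 and Sox2 among them, was 6109 to 6440 CPM in 4OHT libraries and 6220 to 6413 CPM in vehicle libraries. Of 10 feeder fibroblast markers, Postn and Fap had no read in any library, which allows up to 0.0162 CPM over the 6 together, and the list summed to 14.1 to 19.1 CPM in 4OHT libraries and 24.5 to 26.1 CPM in vehicle libraries. Of its 4 tested genes Thy1 fell and 3 did not pass. Over all tested genes 11.9% rose and 10.5% fell, which also stands beside the next 2 lists. Of 4 tested trophoblast markers 2 rose and 1 fell. That list, of which Tfap2c made up most, summed to 94 to 98.5 CPM in 4OHT and 83.7 to 86.8 CPM in vehicle libraries. Of 4 tested neural markers Sox1 rose, Tubb3 fell and 2 did not pass. The neural list, of which Tubb3 made up most, summed to 83.3 to 87.8 CPM in 4OHT and 123 to 131 CPM in vehicle libraries. Of 8 primitive endoderm markers 7 rose, where 11.9% of all tested genes did, and an 8th, Foxa2, passed the filter only through its 4OHT libraries. Of the 7, Sox17, at 0.113, 0.348 and 0.457 CPM in vehicle libraries, would not have passed the filter on those alone. Gata4, Sox17 and Sox7 had no read in 4OHT replicate 2. The list, of which Col4a1 made up most, summed to 99.2 to 137 CPM in 4OHT libraries and 57.9 to 60.9 CPM in vehicle libraries. The part of these markers in the results on the 4 factors was not tested. In bulk RNA, fewer cells that express a gene and less RNA of it per cell cannot be told apart.

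All 4 factors passed the edgeR test, where 22.4% of all tested genes did. Genes higher in 4OHT made up 11.9% and genes lower in 4OHT 10.5%. Nanog and Pou5f1 fell and Sox2 and Sall4 rose, and the change of Nanog was the largest of the 4. How often the libraries of other genes separate by group was not counted. Where groups are said below not to overlap, this only describes the values.

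Nanog stood at 177, 172 and 194 CPM in the 4OHT libraries, against 631, 659 and 640 CPM in the vehicle libraries. Every 4OHT value lay far below every vehicle value, and the counting interval of the shallow library, 138 to 211 CPM, did not come near the vehicle range. The fitted level in 4OHT was 28.6% of that in vehicle (95% interval 26.1% to 31.3%), a log2 fold change of -1.81 (SE 0.06, edgeR adjusted p = 1.6e-13). Reads of mNanogV5 may be part of these values, and of the ratios and levels of Nanog given below.

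Pou5f1 stood at 1084, 1181 and 1098 CPM in the 4OHT libraries, against 1285, 1295 and 1269 CPM in the vehicle libraries. The groups did not overlap, although the shallow library's counting interval of 1090 to 1278 CPM reached the lowest vehicle value. Its fitted level in 4OHT was 86.7% of that in vehicle (95% interval 79.8% to 94.3%; log2 fold change -0.21, SE 0.06, edgeR adjusted p = 0.014). Without vehicle replicate 2 the change was the same size, but the adjusted p was 0.0717. Pou5f1 shares 14.1% of its exon bases with Gm19553, an antisense gene, and whether the counting used strand is not given in the sources used here.

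Sox2 stood at 891, 845 and 913 CPM in the 4OHT libraries, against 817, 778 and 764 CPM in the vehicle libraries. The groups did not overlap, but the lowest 4OHT value came from the shallow library, whose counting interval of 769 to 928 CPM covered 2 of the 3 vehicle values. The fitted level was 113% of that in vehicle (95% interval 104% to 123%; log2 fold change 0.18, SE 0.06, edgeR adjusted p = 0.0337). This call was the least stable of the 4: the adjusted p was 0.0787 without 4OHT replicate 3, 0.2 without vehicle replicate 2, 0.16 without vehicle replicate 3 and 0.0515 in DESeq2. Sox2 lies within Sox2ot, a long non-coding RNA gene, with no shared exon base. Sox2ot was low, at 2.85, 1.91 and 2.19 CPM in 4OHT libraries and 2.08, 2.74 and 1.75 CPM in vehicle libraries, and it did not pass the test (log2 fold change 0.26, SE 0.19, edgeR adjusted p = 0.353).

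Sall4 stood at 471, 462 and 478 CPM in the 4OHT libraries, against 332, 322 and 317 CPM in the vehicle libraries. The groups were well apart, and the shallow library's counting interval of 405 to 524 CPM also lay above all vehicle values. The fitted level was 146% of that in vehicle (95% interval 134% to 158%; log2 fold change 0.54, SE 0.06, edgeR adjusted p = 4.1e-07). It passed the test in every alternative listed in the closing part. An opposite-strand gene, Gm14261, overlaps 9.5% of the exon bases of Sall4.

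**Figure D1:**
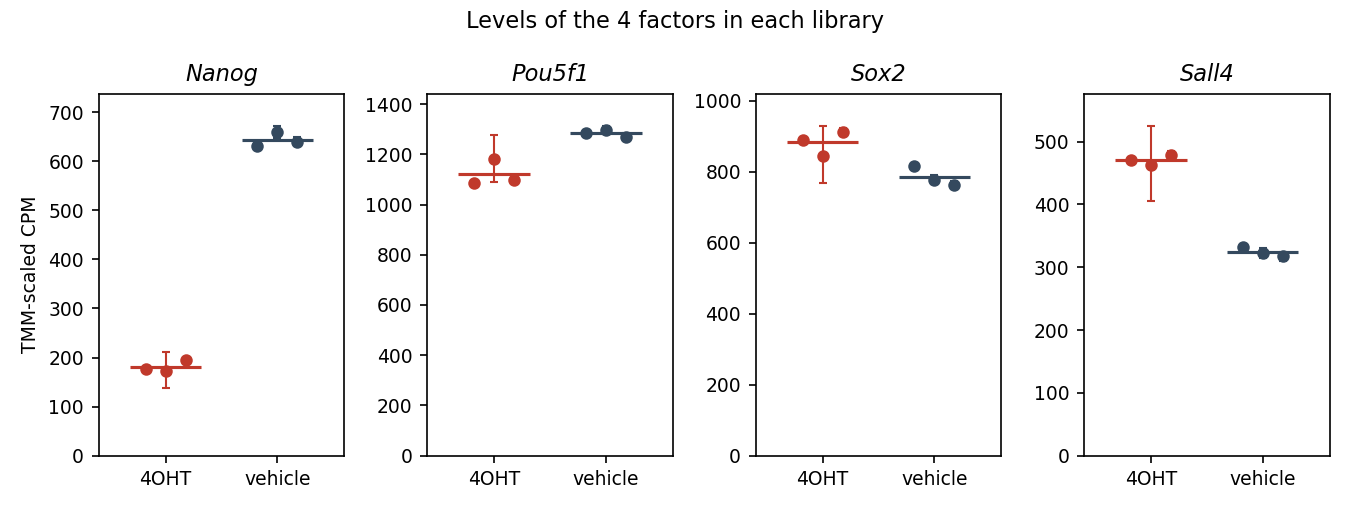
Level of each of the 4 factors (TMM-scaled CPM, linear axes from 0) in the 3 libraries of 4OHT cells and the 3 of vehicle cells. Points are libraries with their 95% exact binomial counting intervals and lines are group means. Nanog averages 181 CPM in 4OHT and 643 CPM in vehicle, while the partners differ by far less.

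How far the partners held was also read without any scaling, as the ratio of the counts of 2 factors within a library. The ratio carries the transcript lengths, so only its change between groups has a meaning. Sall4 over Nanog was 2.66, 2.69 and 2.46 in the 4OHT libraries, against 0.527, 0.488 and 0.494 in the vehicle libraries. Sall4 thus had more reads than Nanog in every 4OHT library and fewer in every vehicle library. This was the largest shift of the 6 pairs, 2.37 on the log2 scale (SE 0.05).

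Sox2 over Nanog averaged 4.89 ± 0.162 in 4OHT and 1.22 ± 0.0633 in vehicle libraries (SD, n = 3 each), a log2 difference of 2.00 (SE 0.05). Pou5f1 over Nanog averaged 6.22 ± 0.611 in 4OHT and 1.99 ± 0.0387 in vehicle libraries (SD, n = 3 each), a log2 difference of 1.64 (SE 0.08). By the log2 differences the 3 ratios over Nanog were 3.11-fold (Pou5f1), 4-fold (Sox2) and 5.17-fold (Sall4) higher in 4OHT. Without 4OHT replicate 2, where Nanog had 90 reads, the log2 difference of Pou5f1 over Nanog was 1.56.

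The partners also moved against each other. Sox2 over Pou5f1 was 0.822, 0.716 and 0.832 in the 4OHT libraries, against 0.636, 0.601 and 0.602 in the vehicle libraries, a log2 difference of 0.36 (SE 0.07). The shallow library gave the lowest 4OHT ratio, with a counting interval of 0.632 to 0.81 that reached the highest vehicle ratio. Without it the log2 difference was 0.43. Sall4 over Pou5f1 was 0.434, 0.391 and 0.435 in the 4OHT libraries, against 0.258, 0.249 and 0.249 in the vehicle libraries, a log2 difference of 0.73 (SE 0.05). Sall4 over Sox2 averaged 0.533 ± 0.0122 in 4OHT and 0.412 ± 0.00443 in vehicle libraries (SD, n = 3 each), a log2 difference of 0.37 (SE 0.02).

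In all 6 pairs the groups did not overlap. The pairs share the same factors, so they are not 6 independent results. How often ratios of other genes separate the groups in this way was not tested. The exact two-sided permutation p was 0.1 for each pair, and 0.1 after Benjamini-Hochberg adjustment over the 6, which is the smallest p that 3 against 3 libraries allow.

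**Figure D2:**
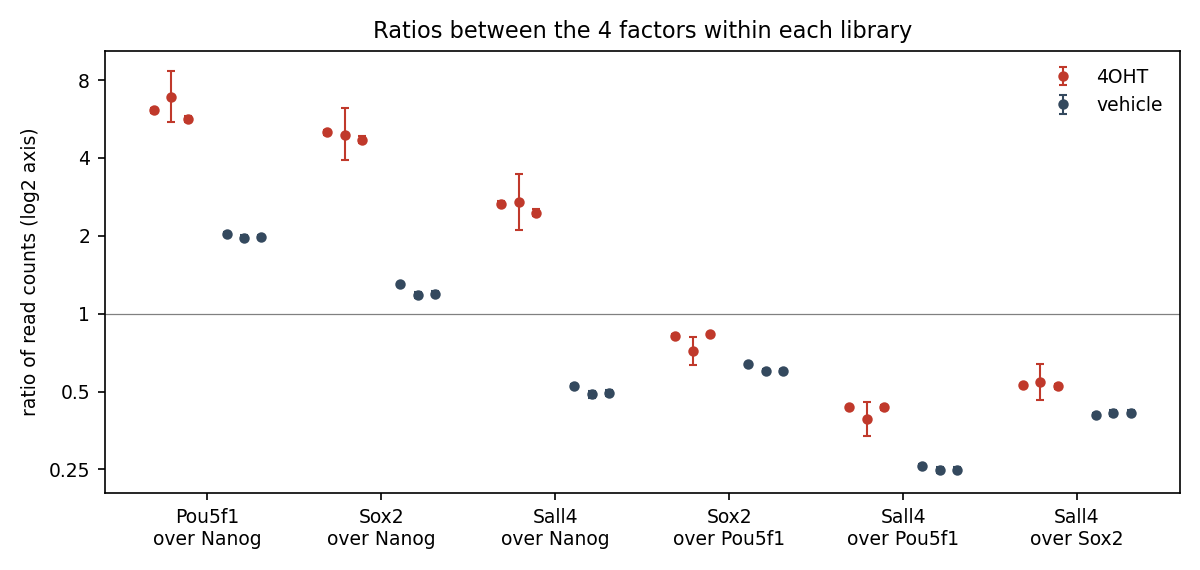
Ratio of the read counts of 2 factors within each library (log2 axis), 4OHT libraries left of vehicle libraries in each of the 6 pairs. Points are libraries and bars are 95% exact binomial counting intervals, widest in 4OHT replicate 2. The 3 ratios over Nanog are on average 3.11-fold to 5.17-fold higher in 4OHT, and those among the partners 1.29-fold to 1.66-fold higher.

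Levels of different genes were compared per kilobase of the longest GENCODE vM21 transcript. In 4OHT cells the order was Pou5f1 (823 ± 38.7 CPM per kilobase, SD, n = 3), Sox2 (429 ± 16.8), Sall4 (92.6 ± 1.55) and Nanog (81.8 ± 5.19). In vehicle cells it was Pou5f1 (942 ± 9.49), Sox2 (382 ± 13.4), Nanog (291 ± 6.56) and Sall4 (63.8 ± 1.56). Nanog thus stood below Sall4 in 4OHT cells and above it in vehicle cells. The order of these neighbours in 4OHT cells depended on the gene model. Per kilobase of all exons together Sall4 stood at 83.4 to 86.3 and Nanog at 76.6 to 86.4 over the 3 4OHT libraries, which overlap, so there the 2 did not differ beyond their spread. Under that model Pou5f1 was at 499 ± 23.4 in 4OHT and 571 ± 5.75 in vehicle cells (SD, n = 3 each), above Sox2 in both groups.

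The 4 changes were set against genes that were measured as well. Of 2399 tested genes with a mean of at least 100 CPM, a bound chosen after the data had been seen, 20.8% passed the test, with 14.1% higher in 4OHT and 6.71% lower. Their median absolute log2 fold change was 0.08. Nanog had the deepest fall of all 2399. The next was that of Pfkp, a phosphofructokinase gene, at -0.97. The rise of Sall4 ranked 37th of 2399, the fall of Pou5f1 119th and the rise of Sox2 339th. In absolute size 2.21% of these genes changed more than Sall4, 16% more than Pou5f1 and 21.1% more than Sox2. Over all 14458 tested genes, which include low and noisier ones, the fall of Nanog ranked 33rd. The share of calls among the 2399 was 12% without vehicle replicate 2 and 33% in the fit blocked on replicate number.

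**Figure D3:**
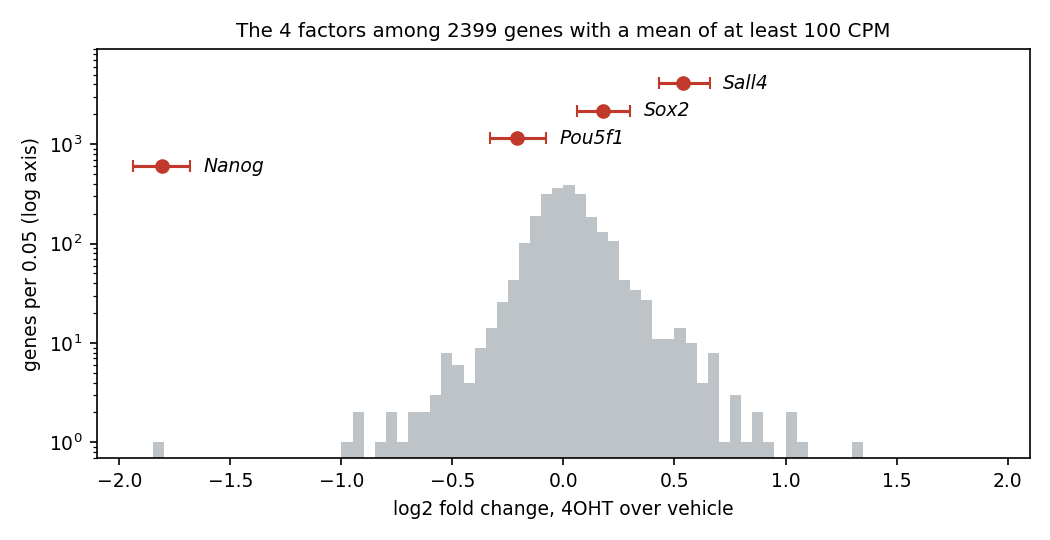
Log2 fold changes, 4OHT over vehicle, of the 2399 genes with a mean of at least 100 CPM (grey, genes per step of 0.05 on a log axis). Red points are the 4 factors with 95% intervals, set at arbitrary heights. Nanog at -1.81 lies apart from all other genes, and the 3 partners lie inside the range of the others.

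Genes with a like pattern were sought among 4371 genes with a mean of at least 50 CPM, by the Euclidean distance of mean-centred log2 CPM over the 6 libraries. No gene came close to Nanog. The nearest was Epb4.1l4a, a FERM-domain protein gene, at a distance of 0.687, followed by the tight junction gene Cldn4 at 0.854 and the transglutaminase gene Tgm1 at 0.974, with log2 fold changes of -1.33, -1.12 and -1.01. The other factors had near matches. Sall4 was nearest to Gldc, the glycine decarboxylase gene (distance 0.0674, log2 fold change 0.51), Rreb1 (0.0783 and 0.52) and the laminin gene Lamc1 (0.0796 and 0.59). Pou5f1 was nearest to Vps36 (0.0451), Uqcrq (0.0644) and Pcdhga12 (0.0722), and Sox2 to Mybl2 (0.0643), Abi2 (0.0653) and Nf2 (0.0661). Within a distance of 0.5 there were 0 genes for Nanog, 626 for Sall4, 3478 for Pou5f1 and 3704 for Sox2. The measure mostly reads the size of the group difference, so it sets the small shifts of Pou5f1 and Sox2 among those of most genes.

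Related genes were read by family. Of the 4 SALL genes, Sall4 itself and Sall2 rose, beside 11.9% higher over all tested genes. Sall2 rose to 18.4 ± 4.12 CPM in 4OHT against 10.2 ± 0.807 CPM in vehicle cells (SD, n = 3 each; log2 fold change 0.66, edgeR adjusted p = 8.69e-05). Sall1, the other SALL gene with a high level, stood at 292 ± 2.52 CPM in 4OHT and 263 ± 5.24 CPM in vehicle cells and did not pass (log2 fold change 0.15, edgeR adjusted p = 0.0652). Sall3 did not pass either. Its fitted log2 fold change of 0.27 went against the group means, which were 10.5 ± 7.45 CPM in 4OHT and 11.9 ± 0.925 CPM in vehicle cells, with 1.91 CPM, or 1 read, in 4OHT replicate 2. Without 4OHT replicate 1 the fit called all 4 SALL genes higher, with the same conflict for Sall3.

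Of 12 tested SOX genes 7 rose, 2 fell and 3 did not pass, beside 11.9% higher and 10.5% lower over all tested genes. Their median log2 fold change was 0.47, beside 0.00 over all tested genes. Sox2 itself is counted among the 7. Sox21, a SOXB2 gene that counteracts SOXB1 factors in neural cells, rose to 14.9, 21 and 16.3 CPM in 4OHT libraries, against 5.5, 5.52 and 5.63 CPM in vehicle libraries (log2 fold change interval 1.29 to 1.71, edgeR adjusted p = 1.33e-09). Sox4, a SOXC gene, and Sox13, a SOXD gene, rose by 0.49 and 0.44 on the log2 scale. Sox17 and Sox7, endodermal SOXF genes, rose by 3.53 and 0.65, although 4OHT replicate 2 held no read of either. Sox17 would not have passed the filter on its vehicle libraries alone, so the filter itself favoured a rise. Of the other SOXB1 genes Sox1, a gene of low level, rose by 0.69 and Sox3 did not pass (-0.09). Sox15, which can bind with OCT4, fell to 14.9 ± 0.533 CPM in 4OHT against 21.7 ± 1.39 CPM in vehicle cells (SD, n = 3 each; log2 fold change -0.57), and Sox12 was also called lower (-0.42), although its groups overlapped, with 73, 118 and 83.8 CPM in 4OHT libraries and 107, 112 and 105 CPM in vehicle libraries. All other SOX genes listed here stood far below Sox2, at no more than 118 CPM in any library.

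Of 9 tested POU genes 3 rose, 2 fell (Pou5f1 among them) and 4 did not pass, beside 22.4% called over all tested genes. The median log2 fold change of the 9 was 0.09. Besides Pou5f1 only Pou2f1, the widely expressed OCT1, was high, at 135 ± 10.3 CPM in 4OHT and 139 ± 4.71 CPM in vehicle cells (SD, n = 3 each; log2 fold change 0.01, edgeR adjusted p = 0.947). Pou6f1 rose to 12.2 ± 0.753 CPM in 4OHT against 8.78 ± 0.913 CPM in vehicle cells, and Pou2f3, a gene of chemosensory tuft cells, fell (-1.02) with no read in 4OHT replicate 2. Without vehicle replicate 2, 1 POU gene fell, and 1 rose after quantile normalization in limma-voom.

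Protein partners of the 4 factors were read in the same way. Of 34 tested partners 5 rose, 2 fell and 27 did not pass, a share near the 22.4% called over all tested genes. Their median log2 fold change was 0.04. The scaffold of KRAB zinc finger repression, Trim28, rose to 3342 ± 183 CPM in 4OHT against 2819 ± 31 CPM in vehicle cells (SD, n = 3 each; log2 fold change 0.25). Among NuRD subunits Mta1 and Mta3 rose by 0.27 and 0.23 on the log2 scale, while Mta2 did not pass (-0.02). Other members of that complex gave 0.13 for the remodeller Chd4, -0.11 for Mbd3, -0.05 for Hdac1 and 0.14 for Hdac2, none of which passed. Gatad2a (0.05) and Gatad2b (0.04) did not pass either. Arid3b, an AT-rich interaction domain gene, rose by 0.44 and the corepressor gene Ctbp2 by 0.22. Tet2, a 5-methylcytosine dioxygenase gene, fell to 158, 130 and 112 CPM in 4OHT libraries, against 206, 173 and 181 CPM in vehicle libraries (log2 fold change -0.47, edgeR adjusted p = 0.0015). Klf5 fell by 0.23. Nr0b1, Zfp281 and Nacc1, which bind NANOG or OCT4, did not pass (0.03, -0.06 and 0.05). In the blocked fit, which called 33% of the genes of at least 100 CPM, 11 partners rose and 4 fell, and without vehicle replicate 2, 1 fell.

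Of 19 tested regulators of the 4 genes, 5 rose, 3 fell and 11 did not pass, beside 11.9% higher and 10.5% lower over all tested genes, with a median log2 fold change of 0.02. Klf2, a Krüppel-like activator of naive cells, rose to 532 ± 58.2 CPM in 4OHT against 363 ± 3.58 CPM in vehicle cells (SD, n = 3 each; log2 fold change 0.53). Nr5a2, an activator of Pou5f1, and Nr6a1, its repressor during differentiation, rose together, by 0.21 and 0.39. Nr2f2, another repressor of Pou5f1 and 1 of the 5, passed the filter only through its 4OHT libraries, so its call says little. It had 1.04, 3.82 and 1.14 CPM in 4OHT libraries, the 3.82 being 2 reads, against 0.321, 0.0995 and 0.114 CPM in vehicle libraries. Med12, a subunit gene of Mediator, rose by 0.20. Stat3, the mediator of LIF signalling, fell by 0.28, Prdm14 by 0.30 and Klf5 by 0.23. Tcf7l1, a repressor of Nanog, did not pass (0.16, edgeR adjusted p = 0.127). The number of regulators that fell was 5 without 4OHT replicate 1 and 5 without 4OHT replicate 3, and 3 rose without vehicle replicate 2. Of 15 enzymes and adaptors that modify the 4 proteins, 3 rose and 12 did not pass in edgeR, a share near the 22.4% called over all tested genes. The deubiquitinase gene Usp9x and the ubiquitin-conjugating enzyme gene Ube2s each rose by 0.35 and the methyltransferase gene Carm1 by 0.19. In the blocked fit 5 rose. The ubiquitin ligase genes Wwp2 and Itch, which target OCT4, gave 0.15 each, with edgeR adjusted p of 0.0773 and 0.114.

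Of 7 tested genes with a described OCT4 and SOX2 element, 2 rose, 2 fell and 3 did not pass, beside 11.9% higher and 10.5% lower over all tested genes, with a median log2 fold change of -0.05. Fgf4, the classical gene with such an element, fell to 177, 176 and 192 CPM in 4OHT libraries, against 224, 227 and 230 CPM in vehicle libraries (log2 fold change -0.30, edgeR adjusted p = 0.000721), and the osteopontin gene Spp1 fell by 0.23. Fbxo15, an F-box protein gene used as a stem cell reporter, and Lefty1, a NODAL antagonist gene, rose by 0.43 and 0.64. Utf1 (-0.19), Zscan10 (0.06) and Dppa4 (-0.05) did not pass.

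Of 8 tested genes reported to follow NANOG upward, only Prdm14, a PR-domain factor gene, fell, to 38.4 ± 6.79 CPM in 4OHT against 51.4 ± 1.62 CPM in vehicle cells (SD, n = 3 each; log2 fold change -0.30, edgeR adjusted p = 0.0033) and 7 did not pass, beside 10.5% lower over all tested genes. Esrrb, an orphan nuclear receptor gene and a direct NANOG target, stood at 803, 840 and 819 CPM in 4OHT libraries, against 796, 804 and 798 CPM in vehicle libraries. Its log2 fold change was 0.03 (SE 0.06, edgeR adjusted p = 0.738). Klf4, Tbx3 and Zfp42 gave 0.02, 0.07 and -0.02. The median of the list was 0.00, and without 4OHT replicate 3, 3 members fell.

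Of 6 tested genes reported to be held down by NANOG or SALL4, 5 rose and Pou3f1 did not pass (-0.12), beside 11.9% higher over all tested genes. The list was chosen with results of these data known, so its direction is no independent evidence. Its median log2 fold change was 1.85. Gata6, the factor of primitive endoderm, stood at 10.4, 11.5 and 12.1 CPM in 4OHT libraries, against 0.548, 0.746 and 0.837 CPM in vehicle libraries (log2 fold change 4.05, edgeR adjusted p = 1.44e-12). Otx2, a homeobox gene of the formative step, stood at 113, 95.4 and 122 CPM in 4OHT libraries, against 50.6, 53.5 and 50.4 CPM in vehicle libraries (log2 fold change 1.17, edgeR adjusted p = 9.98e-11). Gata4, Sox17 and Sox7, the other 3 that rose, had no read in 4OHT replicate 2. Sox17 would not have passed the filter on its vehicle libraries alone, so the filter itself favoured its rise. After quantile normalization in limma-voom 3 of the list rose. Cdx2 and T were below the filter, at no more than 0.261 CPM in any library.

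**Figure D4:**
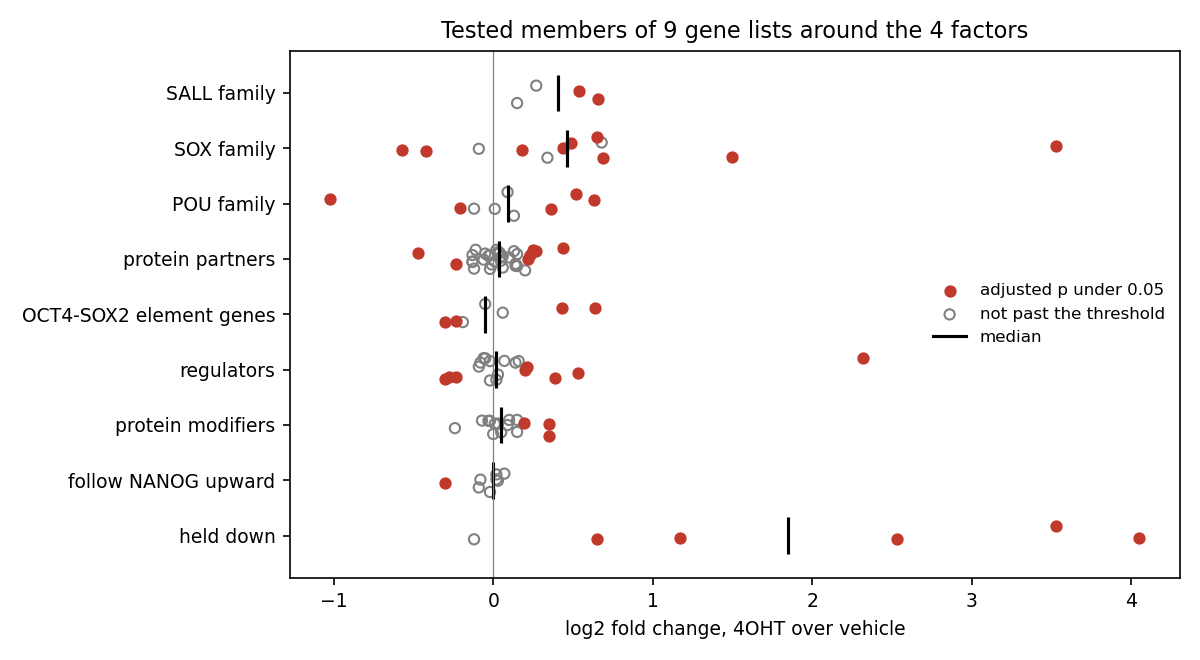
Log2 fold change, 4OHT over vehicle, of each tested member of the 9 gene lists around the 4 factors, with filled points past the adjusted p threshold of 0.05 and a line at each median. Medians lie between -0.05 and 0.09 for POU genes, partners, element genes, regulators, modifiers and genes that follow NANOG, at 0.41 and 0.47 for the SALL and SOX families, and at 1.85 for genes held down.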

How the data were processed

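Per the labels' protocols, Trizol-extracted RNA of 6 murine samples went into NEBNext Ultra libraries. The table deposited by the authors holds whole-number read counts per gene symbol. STAR, DESeq and mm9 are named without versions in the submitters' processing notes. How reads were counted, by which annotation and whether by strand is not given in the sources used here. No size factor had been applied, since totals differ as raw counts do. 0 columns of other samples were present.

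Counts were tested with edgeR 4.0.16 (R 4.3.3): filterByExpr (minimum count 10), TMM factors (0.979 to 1.02), a quasi-likelihood fit of treatment on all 6 samples and Benjamini-Hochberg adjustment over 14458 genes at 0.05. Fold changes have a prior count of 0.125, SEs come from the F statistic, and intervals are at 95%. Counting intervals are exact binomial and cover counting error only. Alternatives used DESeq2 1.42.0 and limma 3.58.1. The edgeR fit was first tested on simulated counts of these genes. Transcript lengths and exon overlaps came from GENCODE vM21. By blastn 2.17.0 (at least 90% identity over 200 bases) 52 other genes matched Nanog, 1 matched Sall4 and 0 matched Pou5f1 or Sox2. The largest share that a single stretch covered was 11.1% of the Nanog transcript, in Nanog-ps1. Several stretches of the same gene were not added up. No 2 libraries of a group agreed within sampling noise (chi-square per degree of freedom at least 1.18).

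The 4 genes and all lists were chosen with earlier results of these data known. Named genes are the 4 factors, the 3 nearest genes of each, rows that overlap or extend a factor's symbol, and up to 3 members of each list per direction with the smallest adjusted p; other list members were picked after their values were seen, to explain a role. Same-numbered samples deviated together from their group means (r = 0.57, 0.15 and 0.39 for numbers 1, 2 and 3, across 3632 genes), so a pairing by number is taken as possible. It is uneven, since 4OHT 3 deviated more with vehicle 2 (0.45) than with vehicle 3, and no label says what the numbers mark. A replicate block changed no call of the 4 factors. Sensitivity to other settings is given in the closing part.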

Additional observations from a re-analysis of the deposited data

How the results depend on the processing

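Nanog and Sall4 kept their direction and call under all 13 alternatives. Their log2 fold changes ran from -1.87 to -1.75 and from 0.52 to 0.55. For Pou5f1 the range over left-out replicates was -0.23 to -0.19 and for Sox2 0.15 to 0.20, with calls lost only in the fits named beside these genes and, for Sox2, in DESeq2 (0.17, adjusted p 0.0515). The ranges of adjusted p over the alternatives were 3.85e-05 to 0.0717 for Pou5f1 and 0.000802 to 0.2 for Sox2. With the replicate block, log2 fold changes were -1.80, -0.20, 0.17 and 0.54 for Nanog, Pou5f1, Sox2 and Sall4, and the paired exact p of each of the 6 ratios was 0.25, the smallest that 3 pairs allow. No alternative turned a ratio or a fold change of the 4 round. The number of called genes, 3233, was 939 in DESeq2, 2088 in limma-voom after quantile normalization, 4073 with the replicate block and 2368 to 3950 with a replicate left out. Among the genes of at least 100 CPM, 500 were called, against 294 in DESeq2, 791 with the block and 287 to 719 with a replicate left out. The causes were not tested. All exons in place of the longest transcript gave Pou5f1 499 and 571 and Sall4 84.9 and 58.5 CPM per kilobase in 4OHT and vehicle cells, by the longer model. The full octamer ATGCAAAT occurred in 1.74% of windows, and 0 to 3 bases between the SOX and octamer cores gave 0.00913%. Of 234 counts of list members under the alternatives, 214 stayed within 1.5 times the count given. A mean count of at least 50 left 1 POU gene lower. In DESeq2 4 SOX genes, 0 POU genes and 3 regulators rose, and 1 POU gene, 1 regulator, 0 partners and 0 genes that follow NANOG fell. The low depth of 4OHT replicate 2 limits what can be said of genes under 5.73 CPM there.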
